A study of Mus musculus with 62 samples.

Results

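The class 4 monocytes were compared directly with the class 2 monocytes, 2 RNA-seq libraries against 2 of the 62 samples of a mouse study of monocyte fate. Both classes are primary cells of mouse bone marrow collected by flow cytometry, and both were labelled primary monocytes. The labels give neither the sort gates nor the definition of a class, and no strain, age, sex, genotype or treatment. The other primary libraries are 2 each of class 1, class 3, and classical, intermediate and nonclassical monocytes, and the rest of the series was not used here. Nothing states that the replicates came from separate animals, so the p-values measure the spread between these libraries only, which may be technical.

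Monocytes are blood phagocytes made in the bone marrow from dividing progenitors under the control of the receptor for macrophage colony-stimulating factor. Classical mouse monocytes carry Ly6C and CCR2 and leave the marrow for inflamed tissue, whereas nonclassical monocytes carry high CX3CR1, depend on the nuclear receptor Nr4a1 and patrol vessels. Neutrophils share their early progenitors and fill first primary and then secondary granules as they mature, so granule transcripts mark stages of that lineage.

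The deposited table held counts per gene. Totals were 35019854 and 23055610 counts in the class 2 libraries and 28386749 and 27042005 in the class 4 libraries, and the 14 primary libraries ranged from 21153002 to 35019854. The replicates correlated at 0.979 (Pearson, across genes, on log2 CPM, the counts scaled to library size with TMM factors) in class 2 and 0.897 in class 4, the lowest of the 4 classes, and libraries of classes 2 and 4 correlated at 0.816 on average. Monocyte markers were present in both classes, but at lower levels in class 4: the summed CPM of 18 classical monocyte genes was 81050 and 76570 in class 2 against 22920 and 24140 in class 4. Most of each sum was the lysozyme gene Lyz2, at 57630 and 53980 CPM in class 2 and at 13510 and 13550 CPM in class 4. The class 4 libraries also carried markers of other lineages. The summed level of 29 neutrophil genes, 28 of which were tested, was 2581 and 2937 CPM in class 2 against 49610 and 69500 CPM in class 4, and erythroid, B cell, basophil, eosinophil and T or NK cell markers were higher as well, with values given further on. How much of any difference came from such cells was not tested, and fewer cells of a type and less RNA per cell cannot be told apart in these bulk libraries.

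Of 13686 genes tested, 5604 (40.9%) differed between class 4 and class 2 by edgeR's quasi-likelihood test at a Benjamini-Hochberg adjusted p under 0.05. Of these, 2672 genes (19.5% of those tested) were higher in class 4 and 2932 (21.4%) lower, and the median log2 fold change over all genes tested was 0.02. A change of at least 2-fold was called for 1943 genes higher (14.2%) and 2043 lower (14.9%), and 565 and 333 genes respectively passed with at least 16-fold. Whatever the test gave, both class 4 values lay above both class 2 values for 34.2% of genes tested and below them for 35.9%, which is the background for each statement that the groups did not overlap. The split depended on the scaling: with total counts alone in place of the trimmed-mean (TMM) factors the median rose to 0.32 and 63.5% of the calls were higher in class 4, against 47.7%. The number of calls also depended on the class 2 replicates, at 3782 without class 2 replicate 1 and 3487 without class 2 replicate 2. No gene called in both fits changed sign in any of these settings.

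**Figure D1:**
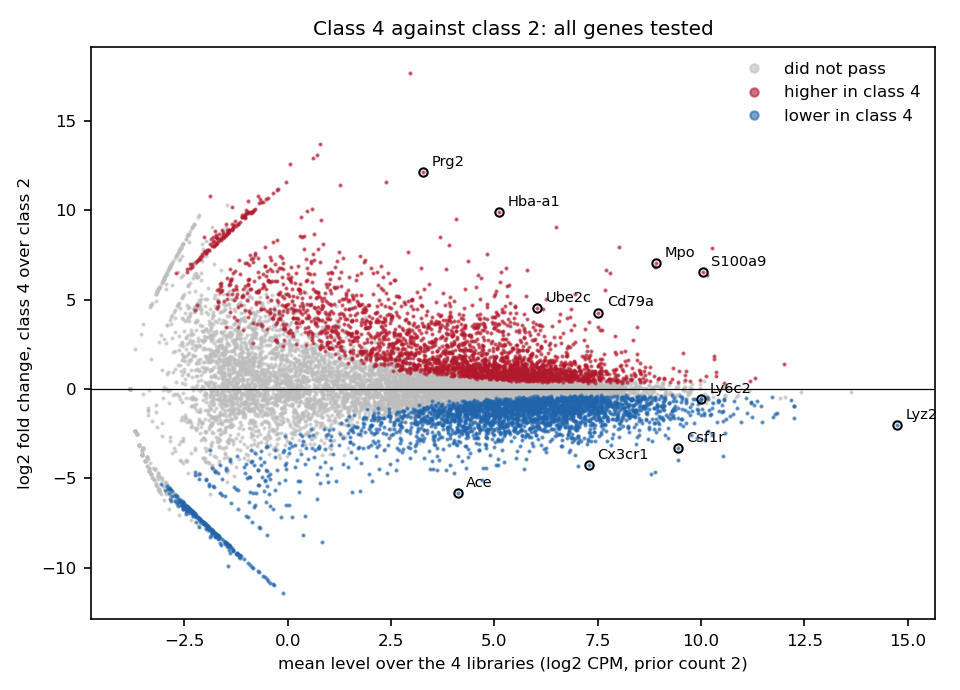
Mean level of each of the 13686 genes tested (log2 CPM over the 4 libraries) against its log2 fold change, class 4 over class 2. Coloured points passed the test (2672 higher, 2932 lower in class 4), and circled genes are named in the text, with Prg2 and Hba-a1 high in class 4 and Ace and Cx3cr1 high in class 2.

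Genes that define the monocyte itself were lower in class 4. Csf1r, the receptor for macrophage colony-stimulating factor, was at 1896 and 2487 CPM in the class 2 libraries and at 236 and 210 CPM in the class 4 libraries (log2 fold change -3.30 ± 0.17 SE, adjusted p = 1.43e-05). Ccr2, the chemokine receptor that takes classical monocytes out of the marrow, stood at 2485 and 2478 CPM in class 2 and at 353 and 381 CPM in class 4 (-2.76 ± 0.15, adjusted p = 1.5e-05). The groups did not overlap for either receptor, and each pair of replicates lay close together beside the gap between classes. Lyz2, the lysozyme of myeloid cells, was 57630 and 53980 CPM in class 2 against 13510 and 13550 CPM in class 4, with part of the reads possibly shared with its near-identical copy Lyz1. Fn1, fibronectin, measured 2000 and 3806 CPM against 135 and 236 CPM, and S100a4 measured 417 and 329 CPM against 51.4 and 60.3 CPM. For all 3 genes the higher class 4 library lay well under the lower class 2 library. Among the 18 classical monocyte genes, 11 were lower in class 4 and 1 higher, with a median log2 fold change of -1.05.

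The gene for the classical surface marker itself moved less. Ly6c2 was at 1274 and 1252 CPM in class 2 and at 823 and 859 CPM in class 4 (-0.59 ± 0.13, adjusted p = 0.00831). The groups did not overlap, but the call was lost with total counts alone (-0.29, adjusted p = 0.112) and with all 14 primary libraries in the fit (adjusted p = 0.0638). Its reads may also be split with the near-identical Ly6c1.

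Nonclassical monocyte genes were lower in class 4 too. Of 21 tested, 13 were lower (61.9%) and 2 higher (9.52%, below the share over all genes), with a median of -1.63. Their summed level was 3574 and 4791 CPM in class 2 and 1111 and 1206 CPM in class 4, and lower still in class 3, at 813.8 and 726.3 CPM. Class 4 was higher than class 3 for 11 of the 21 and lower for 3, beside 13% and 15.7% of genes tested. Cx3cr1, the fractalkine receptor, was at 607 and 763 CPM in class 2 and at 34.4 and 36.4 CPM in class 4 (-4.27 ± 0.20, adjusted p = 1.32e-05). Ace, angiotensin-converting enzyme, was at 102 and 211 CPM against 0.813 and 4.68 CPM (-5.84 ± 0.82, adjusted p = 0.000947), and Emr4, an adhesion receptor of myeloid cells, at 337 and 592 CPM against 45.6 and 25.2 CPM. Nr4a1 showed a smaller change, from 1107 and 1357 CPM to 402 and 393 CPM (-1.63 ± 0.19, adjusted p = 0.000367). In all 4 genes both class 4 libraries lay below both class 2 libraries. The larger falls among well-measured genes outside the monocyte lists included Atp7a, a copper transporter, at 71.9 and 92 CPM against 2.81 and 3.55 CPM.

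**Figure D2:**
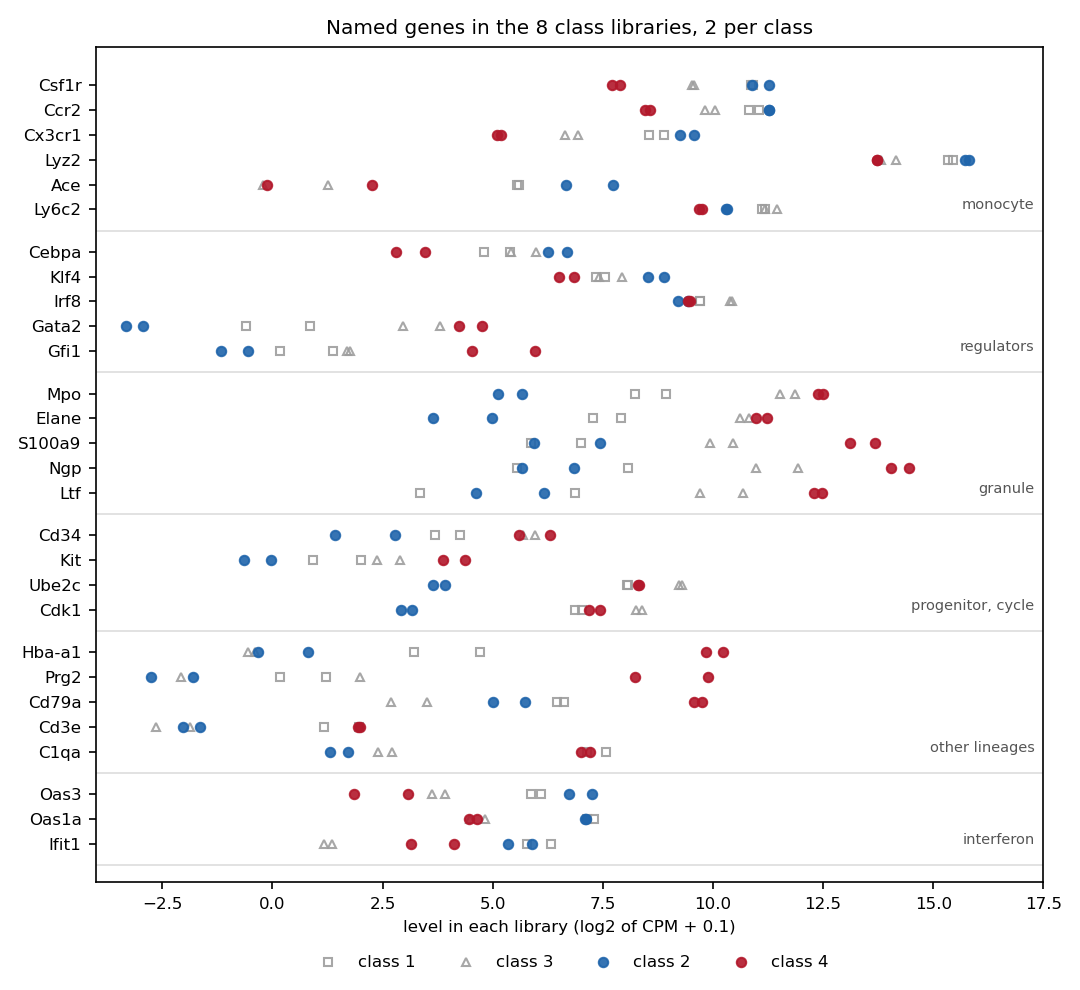
Level of named genes in each of the 8 class libraries (log2 of CPM + 0.1), filled circles for class 2 (blue) and class 4 (red), open grey symbols for classes 1 and 3. Class 4 lies to the left of class 2 for Csf1r, Ccr2 and Cx3cr1, to the right for the granule and other-lineage genes, and beside it for Irf8.

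Transcription factors of myeloid fate were lower in class 4 for 15 of 29 tested (51.7%) and higher for 5 (17.2%, against 19.5% of all genes), with a median of -0.55 and with 9 higher under total counts alone. Cebpb, a factor of late monocyte survival, was at 2644 and 2881 CPM in class 2 against 806 and 937 CPM in class 4 (-1.66 ± 0.13, adjusted p = 5.81e-05), and Zeb2 at 559 and 586 CPM against 129 and 138 CPM. Klf4, which promotes monocyte differentiation, measured 367 and 473 CPM against 90.3 and 115 CPM. Cebpa, which acts at the branch into granulocyte and monocyte progenitors, was 75.8 and 103 CPM in class 2 and 6.88 and 11 CPM in class 4. All of these had class 4 values below class 2 without overlap. Irf8, which directs progenitors to the monocyte and dendritic cell lines, was 689 and 593 CPM in class 2 and 712 and 688 CPM in class 4 (0.13 ± 0.12, adjusted p = 0.431; 0.42 and adjusted p = 0.0247 with total counts alone), with the higher class 2 library above the lower class 4 library. Higher in class 4 were Gfi1, a repressor needed for neutrophil development, at 23.1 and 62.6 CPM against 0.346 and 0.584 CPM (6.55 ± 0.71, adjusted p = 0.000288), and Cebpe, the factor of secondary granule genes, at 60.3 and 117 CPM against 10.2 and 9 CPM. Myc rose from 16.8 and 31.1 CPM to 170 and 145 CPM.

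Granule genes were among the largest differences in favour of class 4. Mpo, the myeloperoxidase of primary granules, was at 50.5 and 34.9 CPM in class 2 and at 5350 and 5800 CPM in class 4 (7.03 ± 0.34, adjusted p = 1.37e-05). Ctsg, cathepsin G of the same granules, was at 6.64 and 4.33 CPM against 524 and 605 CPM, and Ms4a3, a membrane protein of granulocyte and monocyte progenitors, at 2.01 and 1.36 CPM against 226 and 272 CPM. The 2 replicates of each class agreed closely for all 3 beside the difference between classes. Of 16 primary granule genes, 13 were higher and 1 lower (median 4.77). Their summed level was 2387 and 2313 CPM in class 2 and 12260 and 13810 CPM in class 4. It was 2943 and 3114 CPM in class 1 and 8623 and 9983 CPM in class 3. Class 4 was higher than class 3 for 6 of the 16 and lower for 2, beside 13% and 15.7% of genes tested.

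Genes of later neutrophil granules were higher in class 4 as well, with 22 of 28 tested higher and 0 lower. The median was 5.76, or 5.47 with the gene at 0 in class 2 set to its bound from a floor of 3 counts per library. Ngp, the neutrophilic granule protein, was at 51 and 116 CPM in class 2 and at 16800 and 22560 CPM in class 4 (7.88 ± 0.97, adjusted p = 0.000515). Camp, the cathelicidin peptide, rose from 10.8 and 24.1 CPM to 3320 and 5139 CPM, and Ltf, lactoferrin, from 24.6 and 71.9 CPM to 5019 and 5714 CPM. S100a8 and S100a9, the subunits of calprotectin, were at 8351 and 12890 CPM and at 8825 and 13140 CPM in class 4, against at most 164 and 173 CPM in class 2. Class 4 replicate 2 was the higher of the class 4 pair for each of these 5 genes, and class 2 replicate 2 the higher of its pair. Ly6g, which encodes the surface antigen used to identify neutrophils, was low but above class 2, at 15.6 and 24.4 CPM against 0.157 and 0.195 CPM. Cxcr2, the chemokine receptor of mature neutrophils, was at 114 and 77.6 CPM against 0.787 and 7.2 CPM (4.62 ± 0.97, adjusted p = 0.00677). The other 6 genes tested in the list did not pass. Among them Csf3r, the receptor for granulocyte colony-stimulating factor, was at 283 and 365 CPM in class 2 and at 233 and 281 CPM in class 4. Cd177 was at 941 and 907 CPM against 707 and 791 CPM. The summed neutrophil level given above is made up of the genes of this list, and the part of neutrophils in their values was not tested.

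Stem and progenitor regulators were higher in class 4 for 17 of 23 tested and lower for 1 (median 4.41, or 4.19 with genes at 0 in class 2 at their bound); with all 14 primary libraries in the fit, 10 were higher. Cd34, a surface sialomucin of progenitors, was at 2.58 and 6.76 CPM in class 2 and at 78.6 and 48.7 CPM in class 4 (3.79 ± 0.48, adjusted p = 0.000604). Kit, the stem cell factor receptor, was at 0.881 and 0.535 CPM against 14.5 and 20.7 CPM (4.61 ± 0.59, adjusted p = 0.000597). Sox4 measured 5.38 and 11.1 CPM against 271 and 186 CPM. Gata2, a factor of stem cells and also of mast cells and basophils, had 1 count over both class 2 libraries and 1413 over both class 4 libraries, a ratio of 1210 with a counting interval of 216 to 47700. Hoxa9, a homeobox gene of early progenitors, had 0 counts in class 2 and was at least 34.9-fold higher in class 4, taking 3 counts per library as the floor. Flt3, the cytokine receptor of early progenitors and dendritic cells, went the other way, at 53.7 and 83.4 CPM in class 2 against 21.2 and 16 CPM in class 4. Lmo2 did not pass, at 193 and 188 CPM against 194 and 198 CPM. For 10 of the 18 called genes class 3 was nearer class 4 and class 1 nearer class 2. Class 3 had Cd34 at 51.6 and 61.9 CPM but Sox4 at 5.81 and 6.81 CPM. Class 4 was higher than class 3 for 7 of the 23 (13% of genes tested were higher) and lower for 0.

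Cell cycle genes were higher in class 4 without exception among those tested. All 24 mitosis genes and all 26 DNA replication genes tested were higher in class 4, with medians of 3.44 and 2.77. Ube2c, the ubiquitin-conjugating enzyme of the anaphase-promoting complex, was at 12.4 and 15.1 CPM in class 2 and at 313 and 318 CPM in class 4 (4.52 ± 0.15, adjusted p = 9.86e-06). Cdk1, the kinase that drives entry into mitosis, measured 7.52 and 8.91 CPM against 146 and 174 CPM (4.29 ± 0.17, adjusted p = 1.15e-05). Cdc20, the activator of the anaphase-promoting complex, measured 18.4 and 23.9 CPM against 237 and 243 CPM. Among the replication genes, Rrm2, a ribonucleotide reductase subunit, rose from 28.4 and 28.1 CPM to 479 and 427 CPM, and Mcm2, a subunit of the replicative helicase, from 17.8 and 22.7 CPM to 169 and 164 CPM. Cdc6, which loads that helicase, rose from 3.05 and 7.64 CPM to 51 and 70.6 CPM. Replicates of a class differed little beside the gap for each of these genes.

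The promoters of 4 of these genes are shown because the groups moved together and their textbook control elements can be looked for in the letters. Each is the 150 bases before the RefSeq gene start on GRCm38.p6, written 5′ to 3′ on the gene's strand. Capitals mark CCAAT (the box bound by NF-Y), TTTGAA (the cell cycle homology region of mitotic genes) and, in Cdc6, TTTCCCGC or TTTGGCGC (E2F sites), each searched on both strands. The regions are chr2:164769779-164769928 on the plus strand for Ube2c, chr4:118437344-118437493 on the minus strand for Cdc20, chr10:69352913-69353062 on the minus strand for Cdk1 and chr11:98908001-98908150 on the plus strand for Cdc6.
Ube2c: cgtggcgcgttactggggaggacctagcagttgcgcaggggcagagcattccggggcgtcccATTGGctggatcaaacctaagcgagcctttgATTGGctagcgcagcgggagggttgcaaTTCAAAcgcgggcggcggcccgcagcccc
Cdc20: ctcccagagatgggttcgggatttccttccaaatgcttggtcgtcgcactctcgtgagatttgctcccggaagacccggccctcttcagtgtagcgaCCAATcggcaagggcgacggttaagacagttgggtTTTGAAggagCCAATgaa
Cdk1: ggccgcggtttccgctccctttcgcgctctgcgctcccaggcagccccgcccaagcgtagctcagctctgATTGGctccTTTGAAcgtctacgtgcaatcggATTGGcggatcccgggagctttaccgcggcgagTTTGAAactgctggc
Cdc6: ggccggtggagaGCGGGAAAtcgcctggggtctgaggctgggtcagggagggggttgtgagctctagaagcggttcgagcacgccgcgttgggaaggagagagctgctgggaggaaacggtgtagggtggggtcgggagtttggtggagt
Ube2c held CCAAT on the opposite strand 88 and 57 bases before the start and TTTGAA 29 bases before it. In Cdc20 CCAAT stood 53 and 8 bases before the start, and in Cdk1 80 and 48 bases before it on the opposite strand. The E2F-type site of Cdc6 lay 138 bases before its start.

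Over 250 bases before the start, 18 of the 20 mitosis promoters that matched the RefSeq table by symbol (90%) held CCAAT and 8 (40%) held TTTGAA. The shares were 40.7% and 13.1% over the 9181 tested genes that matched, and 37.5% and 18.3% over all 27025 genes of that table. For the replication genes, 13 of 21 matched promoters (61.9%) held CCAAT and 5 (23.8%) an E2F-type site, the latter against 2.92% of the tested genes and 1.51% of all genes. Among the 1867 genes higher in class 4 that matched, 46.1% held CCAAT, 15.1% TTTGAA and 4.18% an E2F-type site, and among the 2108 lower genes the shares were 38.9%, 12.2% and 2.61%. A match describes the letters and does not show a bound site.

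Class 2 was the low class for the cell cycle genes when classes 1 and 3 were set beside it. Ube2c was at 264 and 268 CPM in class 1 and at 599 and 630 CPM in class 3. Compared with class 1, class 2 was lower for 24 of 24 mitosis genes and 26 of 26 replication genes (5.95% of all genes tested were lower in that comparison). Against class 3, class 2 was again lower for 24 of 24 and 26 of 26 (11.8% of genes lower). In the comparison of class 4 with class 1, 0 mitosis genes passed in either direction (10.2% of genes tested were higher and 15% lower), with a median of -0.25, and 5 of 26 replication genes were higher. Class 4 was lower than class 3 for 23 of the 24 mitosis genes (15.7% of genes tested were lower). These comparisons share the class 2 or the class 4 libraries.

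Ribosome biogenesis genes were higher in class 4 for 15 of 20 tested, with 0 lower (median 1.11). Dkc1, the pseudouridine synthase of small nucleolar particles, rose from 35.6 and 27.6 CPM to 140 and 169 CPM, and Nop56, a protein of the same particles, from 63.4 and 60.7 CPM to 180 and 177 CPM. Cytosolic ribosomal protein genes changed less, with 17 of 41 higher and 1 lower (median 0.33). Their count rested on single libraries and on the scaling: it was 6 higher without class 2 replicate 2, 8 without class 4 replicate 2, and 30 with total counts alone. Of 26 oxidative phosphorylation genes, 3 were higher (11.5%, below the share over all genes) and 0 lower (median 0.19), and this became 14 higher with total counts alone, 8 without class 2 replicate 1 and 0 without class 2 replicate 2. Of 18 glycolysis genes, 5 were higher (27.8%) and 6 lower (33.3%), beside 19.5% and 21.4% of all genes, and 2 were higher when either class 2 library was left out. Hk2, the hexokinase of growing cells, was at 87.3 and 91.7 CPM in class 2 against 25.7 and 36.7 CPM in class 4, and Pfkfb3, a regulator of glycolytic flux, at 60.1 and 57.4 CPM against 30.5 and 29.5 CPM. Of 22 cholesterol synthesis genes, 3 were higher (13.6%) and 7 lower (31.8%), and leaving out either class 2 library left 1 higher and 3 lower.

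**Figure D3:**
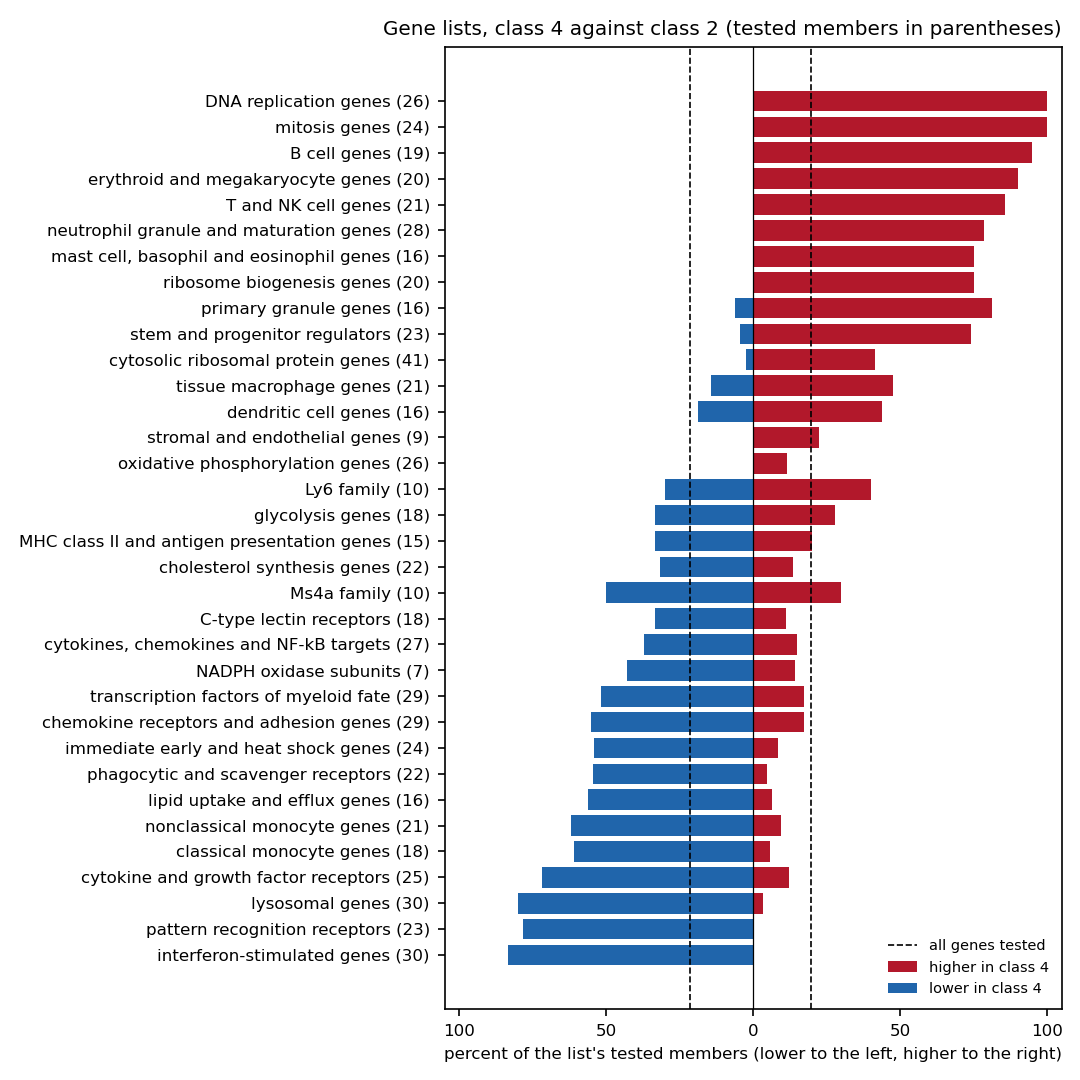
For each list with more than 1 tested member, the percent of those members (number in parentheses) that were higher in class 4 (right, red) or lower (left, blue), with dashed lines at 19.5% and 21.4%, the shares over all genes tested. Mitosis and DNA replication genes reach 100% on the higher side, and interferon-stimulated genes, lysosomal genes and pattern recognition receptors extend farthest on the lower side.

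The machinery for sensing and digesting microbes was lower in class 4. Of 23 pattern recognition receptors, 18 were lower and 0 higher (median -1.86). Tlr2, the receptor for bacterial lipoproteins, was at 494 and 475 CPM in class 2 and at 160 and 155 CPM in class 4 (-1.62 ± 0.13, adjusted p = 6.62e-05). Tlr4, the endotoxin receptor, was at 43.9 and 42 CPM against 7.16 and 8.54 CPM, and Nlrp3, an inflammasome sensor, at 171 and 107 CPM against 21 and 16.9 CPM. No class 4 library reached a class 2 library for these sensors. Phagocytic and scavenger receptors were lower for 12 of 22 and higher for 1 (median -1.32). Itgam, the integrin chain CD11b, measured 1040 and 1214 CPM against 207 and 212 CPM, and Lrp1, a scavenger receptor for many ligands, measured 558 and 594 CPM against 26.6 and 31.8 CPM (-4.30 ± 0.18, adjusted p = 1.2e-05). C-type lectin receptors were lower for 6 of 18 (33.3%) and higher for 2 (11.1%): Clec4a1 was at 256 and 260 CPM in class 2 against 22.8 and 21.4 CPM in class 4, whereas Clec4d rose from 11.7 and 9.15 CPM to 35 and 38.9 CPM, a call lost with all 14 primary libraries in the fit (adjusted p = 0.0754).

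Lysosomal genes fell for 24 of 30 and rose for 1 (median -1.38). Ctss, cathepsin S, was at 3251 and 2876 CPM in class 2 and at 532 and 480 CPM in class 4 (-2.60 ± 0.17, adjusted p = 2.94e-05), and Ctsa, cathepsin A, at 1457 and 1433 CPM against 391 and 340 CPM. The 1 that rose was Cd63, a membrane protein of lysosomes that is also carried on primary granules and basophil granules, at 4.59 and 2.87 CPM against 330 and 370 CPM (6.53 ± 0.38, adjusted p = 1.95e-05). The markers of granule-bearing cells moved with it, and their part in that value was not tested. Of 7 NADPH oxidase subunits, 3 were lower (42.9%) and 1 higher (14.3%, below the share over all genes). Cybb, the catalytic subunit, fell from 3216 and 4015 CPM to 651 and 650 CPM, and Rac2, its small GTPase, rose from 919 and 809 CPM to 1328 and 1525 CPM. Lipid uptake and efflux genes were lower for 9 of 16 and higher for 1 (median -1.63), with Lpl, lipoprotein lipase, at 231 and 441 CPM against 41.3 and 51.9 CPM.

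Interferon-stimulated genes were lower in class 4 for 25 of 30 tested and higher for 0 (median -1.67). Oas3, a sensor of double-stranded RNA that makes 2'-5'-linked oligoadenylates, was at 107 and 152 CPM in class 2 and at 3.53 and 8.3 CPM in class 4 (-4.45 ± 0.41, adjusted p = 0.000128). Oas1a, of the same family, was at 140 and 136 CPM against 21.8 and 24.9 CPM (-2.56 ± 0.17, adjusted p = 3.61e-05). Ifit1, which binds viral RNA lacking a host cap, was at 40.6 and 59.5 CPM against 17.4 and 8.71 CPM. All 3 had both class 4 libraries below both class 2 libraries. Bst2, tetherin, did not pass, at 124 and 103 CPM against 75.5 and 92.3 CPM (adjusted p = 0.0609).

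Promoters of these 3 genes are given since the list moved as a group and has a well-known control element. They are 150 bases before the RefSeq start on GRCm38.p6, with capitals marking the core of the interferon-stimulated response element, GAAA and again GAAA with any 2 bases between them, searched on both strands. Overlapping matches run together. Their positions are chr5:120777660-120777809 on the minus strand for Oas3, chr5:120907526-120907675 on the minus strand for Oas1a and chr19:34640739-34640888 on the plus strand for Ifit1.
Oas3: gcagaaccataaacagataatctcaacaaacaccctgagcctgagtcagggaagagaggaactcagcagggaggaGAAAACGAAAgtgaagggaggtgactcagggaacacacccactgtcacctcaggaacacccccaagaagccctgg
Oas1a: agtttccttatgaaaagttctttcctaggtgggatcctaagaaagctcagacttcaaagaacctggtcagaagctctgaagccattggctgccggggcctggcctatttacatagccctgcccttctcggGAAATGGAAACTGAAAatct
Ifit1: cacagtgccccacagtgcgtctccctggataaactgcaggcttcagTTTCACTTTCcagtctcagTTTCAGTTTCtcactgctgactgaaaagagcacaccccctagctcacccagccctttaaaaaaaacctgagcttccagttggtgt
Oas3 held the element 75 bases before its start. Oas1a held 2 overlapping copies at 20 and 14 bases, and Ifit1 held 2 on the opposite strand at 104 and 85 bases. Within 250 bases, 12 of the 22 interferon-stimulated genes that matched the table (54.5%) held the element, compared with 3.4% of the tested genes and 3.46% of all its genes. Of the 18 matched members that passed the test, 9 (50%) held it. The shares over the genes higher and lower in class 4 that matched were 3.21% and 4.27%.

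Class 3 mostly lay nearer class 4 for these genes and class 1 nearer class 2. Of the 25 called interferon-stimulated genes, 24 had class 3 nearer class 4 and class 1 nearer class 2. Oas1a was at 157 and 141 CPM in class 1 and at 28.5 and 22.2 CPM in class 3. Class 4 was lower than class 1 for 27 of the 30 genes (15% of genes tested were lower). Against class 3, class 4 was higher for 15 (13% of genes tested were higher) and lower for 4 (15.7% of genes tested were lower). Class 2 was higher than class 3 for 27 (12.4% of genes tested). Compared with class 1, class 2 was lower for 3 (5.95% of genes tested were lower) and higher for 0 (3.34% of genes tested were higher). The comparisons share the class 2, class 3 or class 4 libraries.

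Genes for cytokines, chemokines and NF-kB targets were lower for 10 of 27, above the share over all genes. Another 4 were higher, below the share over all genes, and 13 did not pass. The lower count was 6 without class 2 replicate 1. Ccl9, a macrophage inflammatory chemokine, was at 1328 and 1163 CPM in class 2 against 193 and 141 CPM in class 4, and Ccl2, the ligand of CCR2, at 350 and 378 CPM against 31.6 and 72.9 CPM. Il12a, the p35 chain of interleukin-12, was higher in class 4, at 58.7 and 39.3 CPM against 0.881 and 0.487 CPM (6.12 ± 0.48, adjusted p = 6.62e-05), as was Il1b at 340 and 275 CPM against 79.5 and 83.7 CPM. Cytokine and growth factor receptors were lower for 18 of 25 (72%) and higher for 3 (12%, below the share over all genes). Il6ra, the interleukin-6 receptor, fell from 321 and 279 CPM to 32.4 and 33.8 CPM, and Tnfrsf1b, a TNF receptor, from 864 and 1151 CPM to 106 and 130 CPM. Chemokine receptors and adhesion genes were lower for 16 of 29 (55.2%) and higher for 5 (17.2%, near the share over all genes). Fewer were lower when class 2 replicate 2 was left out. The integrin genes Itgal and Itga4 were at 319 and 520 against 68.2 and 65.6 CPM and at 228 and 238 against 35.1 and 45.1 CPM, while S1pr1, the receptor that guides lymphocyte egress, was at 4.59 and 13.7 CPM against 94.7 and 85.1 CPM.

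Immediate early and heat shock genes were lower in class 4 for 13 of 24 (54.2%) and higher for 2 (8.33%, below the share over all genes), with a median of -1.11. Atf3, a stress-induced factor, was at 2751 and 3210 CPM in class 2 against 358 and 452 CPM in class 4. Hspa1a, an inducible HSP70 gene, was at 1562 and 3589 CPM against 51 and 136 CPM, a difference that exceeded the spread within class 2, and its reads may be split with the near-identical Hspa1b. Without class 2 replicate 1 no gene of the list was called higher.

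Surface gene families held members that were higher and members that were lower. Of 10 Ms4a genes, 5 were lower (50%) and 3 higher (30%): Ms4a6b and Ms4a6d were at 551 and 641 against 88.8 and 91.1 CPM and at 137 and 133 against 20.9 and 20.9 CPM. Those higher were Ms4a3, Ms4a1 (CD20 of B cells, 16.5 and 38.2 against 229 and 202 CPM) and Ms4a2, the beta chain of the high-affinity IgE receptor, which had 0 counts in class 2 and was at least 113-fold higher in class 4. Of 10 Ly6 genes, 3 were lower (30%) and 4 higher (40%). Ly6e fell from 3494 and 3323 CPM to 1855 and 1747 CPM, and Ly6d, a marker of early B cells, rose from 16.5 and 34.8 CPM to 610 and 523 CPM.

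Of 15 MHC class II and presentation genes, 5 were lower (33.3%) and 3 higher (20%, near the 19.5% of all genes), with a median of -0.62. Cd74, the invariant chain, was at 3841 and 6144 CPM in class 2 and at 3863 and 3418 CPM in class 4 and did not pass (adjusted p = 0.43). H2-DMa and H2-DMb1, chains of the peptide exchange factor, were at 337 and 354 against 210 and 189 CPM and at 146 and 187 against 75.3 and 56.5 CPM. H2-DMb2, a further chain of that factor, went the other way, at 15.5 and 23.9 CPM against 134 and 153 CPM (2.87 ± 0.24, adjusted p = 7.77e-05). H2-Ob, the B cell inhibitor of that factor, was higher in class 4 at 123 and 75 CPM against 10.3 and 18.5 CPM, and the B cell markers given below moved with it. Dendritic cell genes were higher for 7 of 16 (43.8%) and lower for 3 (18.8%, below the 21.4% of all genes). Fewer were called higher when either class 2 replicate was left out, and fewer lower without class 2 replicate 2.

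The complement genes C1qa, C1qb and C1qc of tissue macrophages were higher in class 4. C1qa was at 3.18 and 2.38 CPM in class 2 and at 127 and 148 CPM in class 4 (5.61 ± 0.26, adjusted p = 1.31e-05), and Slc40a1, the iron exporter ferroportin, at 4.31 and 6.62 CPM against 336 and 277 CPM. Class 1 had C1qa at 190 and 142 CPM and class 3 at 6.5 and 5.2 CPM, so that class 2 and class 3 were the low pair. Emr1, the F4/80 antigen, went the other way, at 283 and 377 CPM in class 2 against 44.2 and 55.1 CPM in class 4. Over the 21 tissue macrophage genes, 10 were higher (47.6%) and 3 lower (14.3%, below the share over all genes). The median was 2.69, or 2.39 with genes at 0 in class 2 at their bound. More were lower without class 4 replicate 1. The summed level of the list was lower in class 4, at 3123 and 3454 CPM in class 2 against 2579 and 2161 CPM in class 4. Scaled by total counts alone it overlapped, at 2834 and 3078 against 2905 and 2340 CPM. Most of the class 2 sum was 1 lower gene, Apoe, at 2445 and 2593 CPM against 731 and 684 CPM. The fall of the sum therefore does not describe the list as a whole.

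Most markers of blood lineages other than monocytes and neutrophils were higher in class 4, while 2 of 9 stromal and endothelial genes were higher (22.2%, near the share over all genes) and 0 lower. Of 20 erythroid and megakaryocyte genes, 18 were higher and 0 lower (median 7.37, or 6.99 with genes at 0 in class 2 at their bound), and their summed level was 17.12 and 20.88 CPM in class 2 and 4157 and 5278 CPM in class 4. Hba-a1, an alpha-globin gene with a near-identical copy, was at 0.692 and 1.66 CPM against 916 and 1199 CPM, and Car2, carbonic anhydrase of red cells, at 1.92 and 2.19 CPM against 317 and 447 CPM. B cell genes were higher for 18 of 19 (median 4.28, or 4.27 with the gene at 0 at its bound), with a sum of 163.7 and 287 CPM against 3818 and 3002 CPM. Cd79a, a signalling chain of the B cell receptor, was at 32 and 52.9 CPM in class 2 and at 868 and 763 CPM in class 4 (4.27 ± 0.33, adjusted p = 6.08e-05), and Vpreb3 of precursor B cells at 4.44 and 6.52 CPM against 331 and 255 CPM.

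Mast cell, basophil and eosinophil genes were higher for 12 of 16 and lower for 0 (median 8.84, or 6.23 with genes at 0 in class 2 at their bound). Prss34, a protease of basophils, had 0 counts in both class 2 libraries and 1238 and 615 CPM in class 4, at least 7710-fold higher. Prg2, major basic protein of eosinophils, was at 0.189 and 0.0487 CPM against 946 and 301 CPM, and Mcpt8, a basophil protease, at 0.126 and 0 CPM against 348 and 152 CPM. Class 4 replicate 1 was the higher library for each of them. Cpa3 and Fcer1a, of mast cells and basophils, had 0 counts in class 2 and were at least 484-fold and 287-fold higher in class 4. The summed level of the list was 3.871 and 5.062 CPM in class 2, 2810 and 1208 CPM in class 4, and 813.9 and 337.9 CPM in class 3.

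T and NK cell genes were higher for 18 of 21 and lower for 0 (median 7.08, or 5.14 with genes at 0 in class 2 at their bound), at lower levels, with sums of 19.51 and 34.95 CPM in class 2 and 194.7 and 117.7 CPM in class 4. The count was 11 without class 2 replicate 1, 10 without class 2 replicate 2 and 6 with all 14 primary libraries in the fit. The sums were 137.3 and 187.2 CPM in class 1 and 31.73 and 21.91 CPM in class 3, so that class 2 and class 3 were the low pair. Against class 1, class 4 was higher for 0 of the 21 genes and lower for 1, beside 10.2% and 15% of genes tested. Class 2 was lower than class 1 for 12 (5.95% of genes tested were lower). Lck, a kinase of T cell receptor signalling, was at 1.23 and 0.438 CPM in class 2 against 22.9 and 30.7 CPM in class 4. Gzma, a protease of killer cells, had 0 counts in class 2 and was at least 225-fold higher in class 4. Xist, the only sex-linked gene of its list that was tested, was at 68.8 and 64.2 CPM in class 2 and at 28.9 and 19.2 CPM in class 4 (adjusted p = 0.0133), and the call was lost without class 2 replicate 1 (adjusted p = 0.0644) or class 2 replicate 2 (0.0552). The lineage of the cells behind these transcripts, and their part in the fall of the monocyte genes, was not tested.

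**Figure D4:**
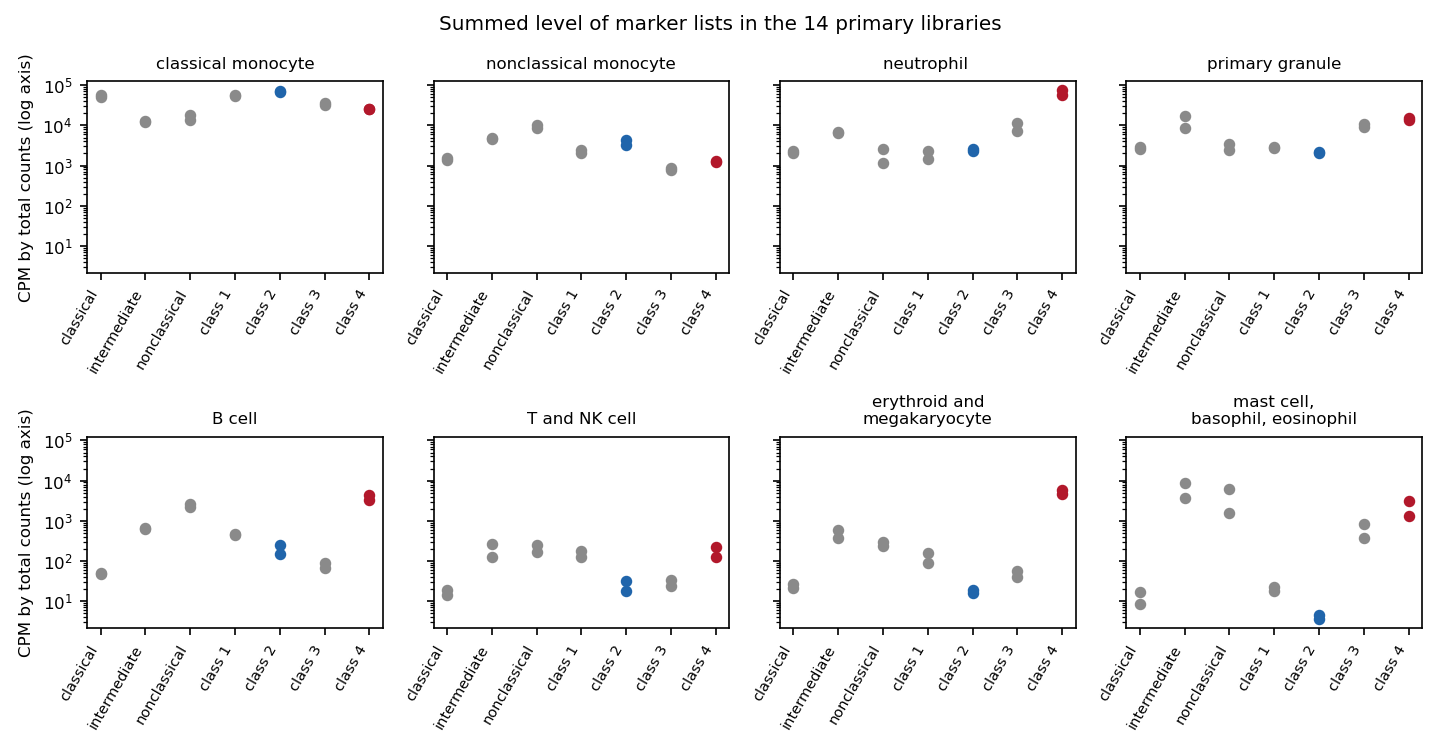
Summed CPM of 8 marker lists in each of the 14 primary libraries, scaled by total counts alone (log axis), with class 2 in blue and class 4 in red. Class 4 lies above class 2 for the neutrophil, primary granule, B cell, T and NK cell, erythroid and basophil lists and below it for both monocyte lists, and some of these lists are also high in the intermediate and nonclassical libraries.

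Classes 1 and 3 were set beside the 5604 called genes as a description of where they stood. For 2369 genes (42.3%) the means of both lay nearer class 2, and for 1261 (22.5%) both lay nearer class 4. Class 3 alone was nearer class 4 for 24.3% and class 1 alone for 11%. Among genes lower in class 4, both were nearer class 2 for 45.5% and nearer class 4 for 12.6%, and among those higher the shares were 38.7% and 33.4%. By list, both were nearer class 4 for 24 of 24 mitosis and 25 of 26 replication genes. Both were nearer class 2 for 14 of 18 B cell genes and 13 of 18 erythroid and megakaryocyte genes, so the high level of these genes was on the side of class 4. For 11 of 14 primary granule genes class 3 was nearer class 4 and class 1 nearer class 2.

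The difference between classes 4 and 2 was also set beside that between nonclassical and classical monocytes, which shares no library with it. Over the 5444 called genes with a value in both, the log2 differences correlated across genes at r = 0.34 (Spearman's rho = 0.29), and 64.3% had the same sign. Over all 12877 genes with a value r was 0.29 and 60.2% had the same sign. Genes are not independent replicates, and the values are a description. Of 2893 called genes lower in class 4, 846 (29.2%) were higher in nonclassical than in classical monocytes. Over all tested genes with a negative log2 fold change and a value, called or not, this held for 2337 of 6468 (36.1%). Scaled by total counts alone, so that all libraries share a scale, the summed nonclassical list was 8572 and 9996 CPM in the nonclassical libraries and 1588 and 1388 CPM in the classical libraries, against 3243 and 4269 CPM in class 2 and 1251 and 1306 CPM in class 4. On that scale B cell sums were 2594 and 2229 CPM in nonclassical against 47.85 and 48.93 CPM in classical libraries. Mast cell, basophil and eosinophil sums were 1577 and 6014 against 16.45 and 8.368 CPM. Neutrophil sums overlapped, at 2516 and 1145 against 2043 and 2315 CPM. The part of such genes in the correlation was not tested.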

How the data were processed

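The members and gene lists were chosen with earlier results of these data known. Total RNA libraries were aligned to mm9 with STAR 2.7.3a and counted with HTSeq 0.6.0, per the submitters' processing notes, and whole-number counts per gene were deposited, with no strand setting given in the sources used here. The authors' counts entered edgeR 4.0.16 (R 4.3.3) unchanged. The 8 libraries of classes 1 to 4 were fitted together, with filterByExpr at a minimum count of 10, TMM factors, the quasi-likelihood test and Benjamini-Hochberg adjustment over 13686 genes at 0.05, leaving 4 residual degrees of freedom. SE is the absolute log2 fold change over the square root of F. CPM values are TMM-scaled, summed lists included, except where total counts are named. Samples were grouped by title, and 1 column that matched no sample was left out. Totals ranged from 21153002 to 35019854 counts in the 14 primary libraries, and a gene with 0 counts is limited to 3 counts per library (0.12 CPM in class 2), which covers counting error only. Replicates of a class differed by more than counting noise, at chi-square values of 35.6 to 82 per degree of freedom, so none was a copy. Deviations of libraries with the same replicate number correlated at -0.011 to 0.073 over the genes tested, so the numbers were not taken as pairs. Such a correlation cannot show a pairing limited to some genes. The summed immediate early and heat shock list was higher in replicate 2 of each class. It was at 35360 and 59230 CPM in class 2 and at 16350 and 21070 CPM in class 4.

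The genes named were taken from 8 set genes, the 14 largest changes in each direction whose log2 CPM averaged 3 or more, and up to 4 members per list and direction with the smallest p, plus the most abundant member that did not pass. Some of these genes, also among the largest changes, were left out of the text for length. Cebpa, Klf4, Irf8, Cdc6, Ifit1, S100a8, S100a9, Elane, Cd3e, Hoxa9, Cpa3, Fcer1a and Gzma were added after their values were seen. Reads of near-identical copies may be split. Promoters came from the RefSeq table and matched 9181 of 13652 tested symbols. Alternatives were other scalings, filters, library sets, a replicate block, DESeq2 1.42.0, and leaving out each replicate.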

Additional observations from a re-analysis of the deposited data

How the results depend on the processing

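The 5604 calls became 3357 with all 14 primary libraries in the fit (1377 higher, and 2625 at 2-fold or more), 6249 with DESeq2, 5599 with RLE size factors, 5864 with total counts alone, 6294 with no filter, 5505 at a minimum count of 50, 4320 with only the 4 libraries and 5551 with a robust spread. Leaving out each replicate in turn gave 3487 to 6099 calls, of which 1617 to 2798 were higher and 1870 to 3301 lower, and 2742 to 4627 at 2-fold or more; the low ends came without class 2 replicate 2, and the lone library left was assumed to vary like the other classes. The replicate block, a pairing that the labels do not state, gave 5303 calls, 5127 of them shared. In no setting did a gene called in both fits change sign. Some log2 fold changes near 0 that did not pass changed sign: with total counts alone Ctsd was at 0.17, Spn 0.10, Ms4a4b 0.10, Pes1 0.08 and Clec12a 0.02, and leaving out each replicate in turn gave -0.56 to 0.94 for Pdgfrb, 0.00 to 0.68 for Axl, -0.05 to 0.29 for Srgn, -0.13 to 0.26 for Jund, -0.38 to 0.18 for Ctsd, -0.88 to 0.24 for Klf2 and -0.84 to 0.08 for Klrk1. The causes were not tested. With 2 libraries a class, small differences in low genes are beyond this depth and replication.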
